A study of Rattus norvegicus with 17 samples.

Results

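The insulin and IGF axis is the set of secreted growth factors, receptors, receptor substrates and binding proteins through which cells read insulin and the insulin-like growth factors. The members described here were given as a list of 10 genes: the ligands Igf1 and Igf2, the receptors Igf1r and Insr, the receptor substrates Irs1 and Irs2, and the binding proteins Igfbp3, Igfbp4, Igfbp5 and Igfbp6. Of these, 9 had a probe set named in the array's annotation, among 14506 genes in all, and Irs2 was not analysed here. Each gene was represented by its probe set with the highest mean.

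RNA came from cultures of ventricular myocytes of newborn Sprague-Dawley rats, aged 5 days in culture, and each sample was read on 1 Affymetrix array. In 6 samples the myocytes had received 10% uremic plasma (the plasma of people whose kidneys have failed) collected before nocturnal hemodialysis (NHD, overnight dialysis), and in another 6 samples 10% uremic plasma collected after NHD. In 3 samples they had received control plasma and in 2 samples phenylephrine, an alpha-adrenergic agonist under which cultured myocytes enlarge. The labels do not give the share of control plasma, the medium of the phenylephrine cultures, the treatment time or whether the replicates of a group were separate cultures or plasma donors, so that the p-values measure the spread between these samples. The cultures are of rat cells and the uremic plasma was that of patients, so the ligand that the plasma itself carried was not read by the arrays.

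All 9 cardiomyocyte markers were bright, with means over the 17 arrays from 11.53 (Ryr2) to 13.96 (Actc1) log2 units. The 12 fibroblast markers ranged from 6.12 (Lum) and 6.79 (Tcf21) to 10.02 (Col1a1) and 13.07 (Vim). The 6 measured endothelial markers ranged from 6.16 (Tie1) and 6.51 (Pecam1) to 8.39 (Kdr) and 9.54 (Eng), and the 7 leukocyte markers from 5.04 (Itgam) and 5.33 (Ptprc) to 7.27 (Cd68). The 6 smooth muscle markers ranged from 7.06 (Rgs5) to 13.86 (Acta2). The summed level of the 12 fibroblast markers, on the log2 scale, ran from 13.400 to 13.430 with control plasma, 12.973 to 14.438 before NHD, 13.315 to 14.402 after NHD and 14.569 to 14.763 with phenylephrine. The markers were summed on the linear scale, so that Vim, the brightest, weighs most in this level and the dim markers weigh little. Of these 12 markers, S100a4 alone passed the test in the comparisons of after NHD with before NHD, after NHD with control and phenylephrine with control, and none did in before NHD against control. The median difference of the 12 from control was -0.12 before NHD, 0.37 after NHD and 1.58 with phenylephrine. After against before NHD this median was 0.53. Of the 9 cardiomyocyte markers, 2 passed as higher before NHD, 5 after NHD and 2 with phenylephrine, each against control. Of all genes, 3.75%, 16.7% and 11.7% passed as higher in these comparisons. The summed level of the 9 markers was 16.191 to 16.219 in the controls and 16.184 to 16.445 before NHD. It was 16.427 to 16.537 after NHD and 16.376 to 16.387 with phenylephrine. The endothelial marker Kdr was higher than control in all 3 comparisons, by 1.79, 1.58 and 1.89 log2 units. Cdh5 was higher with phenylephrine alone (0.51, limma, adjusted p = 0.00547), and no other endothelial marker passed against control. The median difference of the 6 measured endothelial markers from control was -0.04 before NHD, -0.07 after NHD and 0.45 with phenylephrine. Among the smooth muscle markers, Cnn1 was lower after NHD than control (-1.16, limma, adjusted p = 0.00859). With phenylephrine Acta2 was lower (-0.40, adjusted p = 0.0263) and Rgs5 higher (1.65, adjusted p = 0.00452), and no smooth muscle marker passed before NHD. In RNA of a whole culture, a smaller number of cells of 1 type and less RNA per cell cannot be told apart.

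IGF-1 and IGF-2 are small peptides that bind the IGF-1 receptor, a tyrosine kinase closely related to the insulin receptor. Both receptors phosphorylate the IRS proteins, which recruit PI3-kinase and so activate Akt and mTOR complex 1, and Akt in turn keeps the forkhead factor FoxO1 out of the nucleus. IGF-binding proteins hold most of the secreted IGF outside the cell and either withhold it from the receptor or carry it there. In the heart the axis is known for its part in physiological growth and in the survival of myocytes, and IGF-1 in heart tissue is made by fibroblasts and macrophages among other cells.

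The start-site windows of 4 members are shown, since Igf1 and Igfbp5 were the members that passed a test below and Igfbp3 and Igfbp6 were those that varied most alike from array to array. They are RefSeq sequences of the rat assembly GRCr8, each running from 250 bases before to 50 bases after the annotated start, 5′ to 3′ on the gene's strand. Capitals mark matches, on either strand, to 3 short motifs: GGGCGG (the GC box), AAACA (the core of forkhead sites, which reads TGTTT on the other strand) and TATANA (the TATA box).
Igf1, chr7:24172282-24172581, plus strand: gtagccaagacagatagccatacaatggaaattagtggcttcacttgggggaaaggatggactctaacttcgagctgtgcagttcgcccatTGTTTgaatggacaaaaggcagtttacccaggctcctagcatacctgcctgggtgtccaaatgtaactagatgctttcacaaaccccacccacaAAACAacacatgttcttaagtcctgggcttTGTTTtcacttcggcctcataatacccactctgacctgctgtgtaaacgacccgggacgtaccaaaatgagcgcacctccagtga
Igfbp5, chr9:81914138-81914437, minus strand: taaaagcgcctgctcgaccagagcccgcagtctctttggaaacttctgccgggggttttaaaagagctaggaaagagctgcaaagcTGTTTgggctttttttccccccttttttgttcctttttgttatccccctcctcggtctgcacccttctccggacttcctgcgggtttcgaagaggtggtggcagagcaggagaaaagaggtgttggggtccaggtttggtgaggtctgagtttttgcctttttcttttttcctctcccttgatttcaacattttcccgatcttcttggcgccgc
Igfbp3, chr14:86277895-86278194, minus strand: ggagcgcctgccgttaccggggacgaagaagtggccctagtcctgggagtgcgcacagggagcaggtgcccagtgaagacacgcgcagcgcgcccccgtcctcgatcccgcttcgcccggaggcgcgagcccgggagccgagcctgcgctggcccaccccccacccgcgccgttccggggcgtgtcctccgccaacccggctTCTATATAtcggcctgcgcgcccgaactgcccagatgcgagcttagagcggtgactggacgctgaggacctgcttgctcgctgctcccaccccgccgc
Igfbp6, chr7:135154669-135154968, plus strand: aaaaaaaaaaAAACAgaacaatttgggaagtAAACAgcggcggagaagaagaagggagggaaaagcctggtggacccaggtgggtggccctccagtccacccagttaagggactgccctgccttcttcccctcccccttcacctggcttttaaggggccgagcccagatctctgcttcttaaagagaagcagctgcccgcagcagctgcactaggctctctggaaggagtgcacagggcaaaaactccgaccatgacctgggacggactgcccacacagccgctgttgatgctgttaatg

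The Igf1 window held 3 forkhead cores and the Igfbp5 window 1, neither with a TATA or GC box match. The Igfbp6 window held 2 forkhead cores. The Igfbp3 window held none and instead 2 overlapping TATA box matches, in a sequence of 71.67% G and C against 48.33% for Igf1 and 50.67% for Igfbp5. Among all 33469 windows of this length in the RefSeq table, 51.9% held at least 1 forkhead core, 26.5% a TATA box match and 33.1% a GC box match, so that a forkhead core in a window of this length is common. All 9 measured members had a window, and Igf2 had 2.

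The first question was whether a member's level differed among the 4 treatments at all. Igf1 and Igfbp5 did, and the other 7 did not pass. In limma's moderated F test the adjusted p was 0.0186 for Igfbp5 and 0.0242 for Igf1, and from 0.166 (Igfbp4) to 0.577 (Igfbp6) for the rest, beside 28.2% of all 14506 genes called (1 probe set per gene). Without any 1 of the 3 control arrays no member passed this test. The share of all genes called without those arrays is not given here, so this loss cannot be set against it. Over the 17 arrays Igf1 had the widest range of values, 3.90 log2 units, followed by Igfbp3 (2.73), Igfbp5 (2.39) and Igfbp6 (2.24), whereas Igfbp4 (0.78) and Insr (0.80) varied least.

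**Figure D1:**
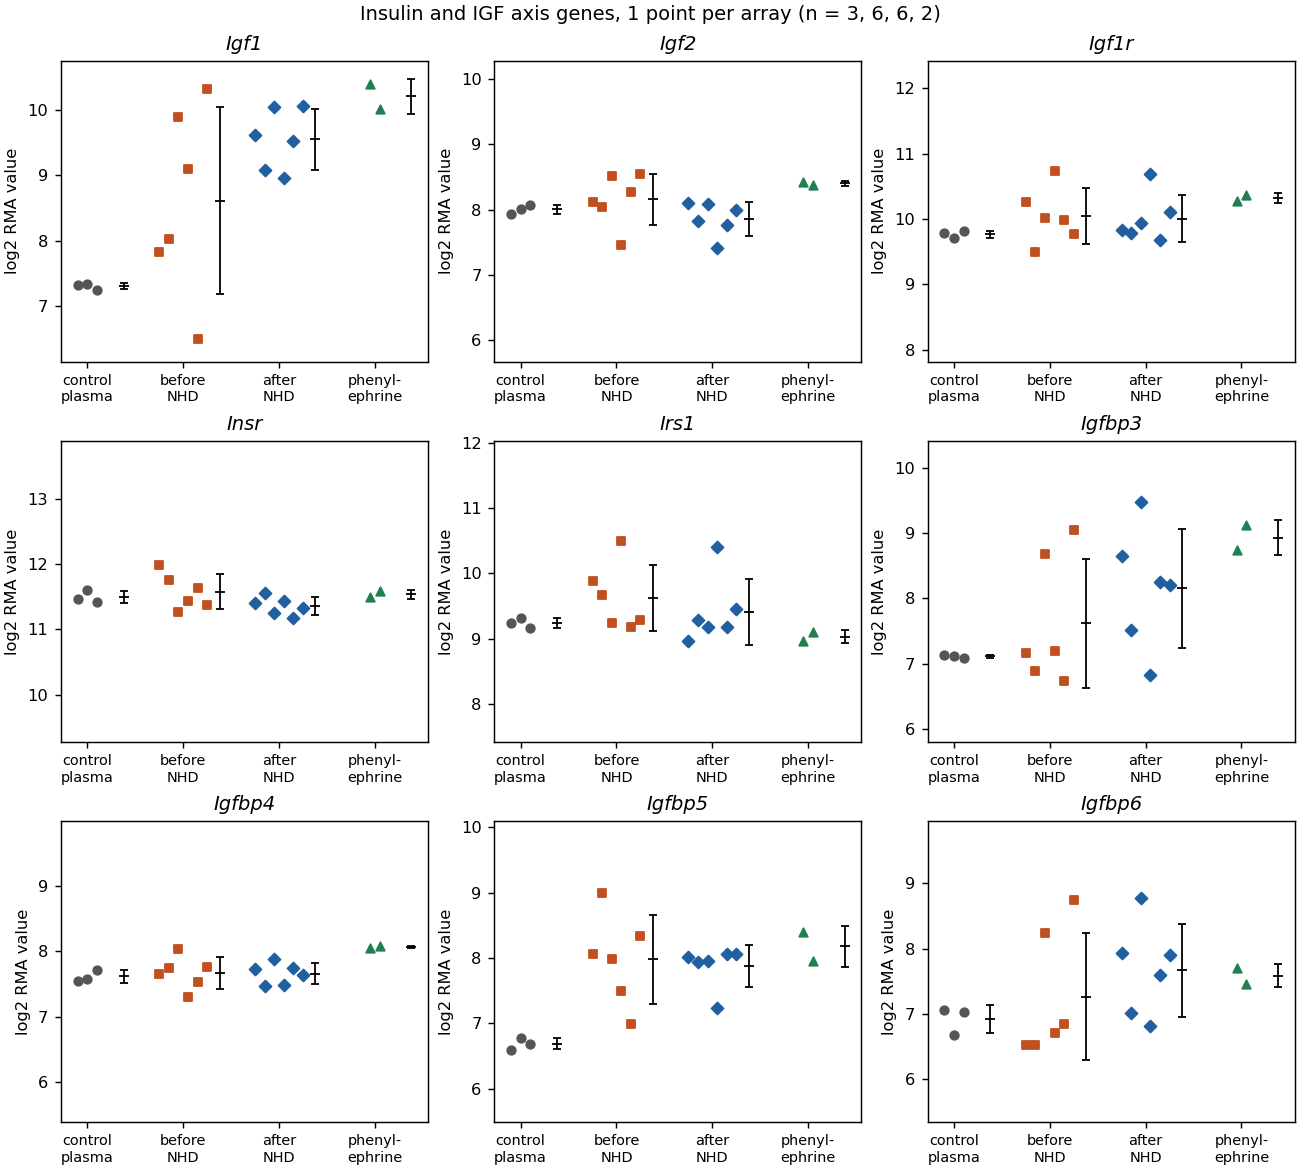
Log2 RMA values of the 9 measured members, 1 point per array (control plasma n = 3, before NHD n = 6, after NHD n = 6, phenylephrine n = 2), with the group mean and SD as a bar at the right of each group; each panel spans the same number of log2 units. All control arrays of Igf1 lie between 7.25 and 7.34 and all after NHD arrays between 8.96 and 10.07, while the before NHD arrays run from 6.50 to 10.33.

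Igf1 encodes IGF-1, the ligand that activates the IGF-1 receptor. Its probe set (10894695) read 7.33, 7.34 and 7.25 log2 units in the 3 control plasma samples and 10.40 and 10.02 in the phenylephrine samples. After NHD the lowest value was 8.96, the median 9.57 and the highest 10.07. Before NHD the lowest was 6.50, the median 8.56 and the highest 10.33. All 6 after NHD samples and both phenylephrine samples thus lay above all controls, whereas before NHD samples ranged from 1 below all controls (replicate 5) to 1 above every after NHD sample (replicate 6).

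Igf1 rose with after NHD plasma by 2.24 ± 0.59 log2 units over control (SE; limma, adjusted p = 0.0108; 4.74-fold), and with phenylephrine by 2.90 ± 0.77 (adjusted p = 0.0157; 7.46-fold). With before NHD plasma the difference from control was 1.31 ± 0.59 and did not pass (adjusted p = 0.185), although 5 of 6 samples were above all controls. Without before NHD replicate 5 it was 1.73 and passed (adjusted p = 0.0192). These comparisons share the same 3 control arrays. Ordered by mean, phenylephrine (10.21) was followed by after NHD (9.55), before NHD (8.61) and control plasma (7.30), and no neighbours in that order passed the test. After NHD exceeded before NHD by 0.94 ± 0.49 (adjusted p = 0.318), with a 95% interval from -0.09 to 1.97.

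The SD of Igf1 was 1.43 among the 6 before NHD samples, 0.46 among the 6 after NHD samples and 0.05 among the 3 controls, and this difference in spread was not tested. The before NHD arrays were also the more scattered over all probe sets, with a root mean square SD of 0.377 against 0.245 after NHD and 0.212 with control plasma. Before NHD replicates 3, 4 and 6 read 9.89, 9.10 and 10.33, within or above the after NHD range, and replicates 1, 2 and 5 read 7.83, 8.02 and 6.50, below it.

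Igf1 moved with the fibroblast marker level from array to array. Pearson's r over the 17 arrays was 0.838, and 0.844 for the deviations from the group means, given as a description since the arrays share their normalization. With the summed endothelial and leukocyte markers r was 0.544 and 0.521 (0.613 and 0.725 for the deviations), so that the relation was not particular to the fibroblast markers. In after NHD replicates 2 and 4 the summed fibroblast marker level, 13.344 and 13.315, was below that of every control, and their Igf1 values of 9.09 and 8.96 were above every control. In after NHD replicates 1, 3, 5 and 6 both the marker level and Igf1 were above every control. With the fibroblast marker level as a term in the fit, an alternative added with the data in view, the after NHD difference of Igf1 from control was 1.498 ± 0.35 (adjusted p = 0.00720) and that of phenylephrine 0.90 (adjusted p = 0.376). Both phenylephrine arrays had marker levels (14.569 and 14.763) above every other array, so that the latter value reaches beyond the levels of the other groups. The part of fibroblast, endothelial or leukocyte cells in the rise of Igf1 was not tested. The width of an array's value distribution, taken as the SD over its probe sets, also moved with Igf1 (r = 0.722; SD of 2.245 to 2.317 in the controls and 2.316 to 2.340 after NHD), and with that width as a covariate the after NHD difference was 1.18 ± 0.52 and did not pass (adjusted p = 0.165). Without phenylephrine replicate 1 or 2, the phenylephrine difference of Igf1 did not pass either (adjusted p = 0.117 and 0.0780).

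Igf2, the second ligand and an imprinted fetal growth factor, passed in none of the 6 comparisons. Its probe set (10726999) read 7.94, 8.01 and 8.07 in the controls, 8.43 and 8.38 with phenylephrine, 7.46 to 8.54 (median 8.19) before NHD and 7.41 to 8.10 (median 7.91) after NHD. Both phenylephrine values lay above all control and all after NHD values. Igf2 was 0.29 ± 0.16 log2 units lower after than before NHD (adjusted p = 0.347). The lowest value in each of those groups was that of replicate 4, and without before NHD replicate 4 alone the difference was -0.43 and passed (adjusted p = 0.0447). Without both samples numbered 4 it was -0.34 ± 0.11 (adjusted p = 0.0622). With all 17 arrays the 95% interval of this difference ran from -0.63 to 0.05.

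The receptors and the substrate Irs1 did not pass in any of the comparisons. Igf1r, the receptor that carries the growth signal of both IGFs, read 9.78, 9.70 and 9.81 in the controls and 10.27 and 10.37 with phenylephrine. It ran from 9.50 to 10.73 before NHD (median 10.01) and from 9.68 to 10.69 after NHD (median 9.88). All after NHD values lay within the before NHD range, with a difference of -0.04 ± 0.19 (95% interval -0.44 to 0.35). Phenylephrine exceeded control by 0.56 ± 0.29 (adjusted p = 0.203), and without the samples numbered 4 the same difference, with an SE of 0.18, passed (adjusted p = 0.0374).

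Insr, the insulin receptor, varied least of the receptor genes. The probe set used (10756251) read 11.46, 11.60 and 11.42 in the controls, 11.49 and 11.58 with phenylephrine, 11.26 to 11.98 (median 11.53) before NHD and 11.18 to 11.55 (median 11.36) after NHD. The groups overlapped in every comparison, although 4 of 6 after NHD values were below all controls. After minus before NHD was -0.22 ± 0.11 (adjusted p = 0.307), and after NHD minus control -0.14 ± 0.13 (adjusted p = 0.468). The second Insr probe set (10756229) passed in none of the comparisons either, with -0.19 ± 0.13 for after minus before NHD. Its mean over the 17 arrays was 9.75, against 11.48 for the probe set used, so that the level read depends on the probe set. Only the second was annotated with a RefSeq transcript.

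Irs1, the docking protein that links both receptors to PI3-kinase, read 9.24, 9.32 and 9.17 in the controls and 8.96 and 9.10 with phenylephrine, so that phenylephrine lay below all controls. Before NHD its values ran from 9.18 to 10.49 (median 9.48) and after NHD from 8.96 to 10.40 (median 9.24). The 2 highest values of all 17 were those of the before and after NHD samples numbered 4. Its differences from control were 0.38 ± 0.29 before NHD, 0.17 ± 0.29 after NHD and -0.21 ± 0.37 with phenylephrine, with adjusted p of 0.425, 0.705 and 0.729.

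The before and after NHD samples numbered 4 stood apart in Irs1, Igf1r and Igf2, but not in Insr (11.44 and 11.43). Irs1 read 10.49 and 10.40 in them against at most 9.89 in any other array, Igf1r 10.73 and 10.69 against at most 10.37, and Igf2 7.46 and 7.41 against at least 7.77. These were also the nearest pair of all arrays (SD of their difference over probe sets 0.205, r across probe sets = 0.996), and their summed endothelial marker levels, 9.445 and 9.494, were the lowest of the 17. The part of the endothelial markers in these values was not tested. Over the deviations from the group means, Igf2 and Irs1 had r = -0.884, and Igf1r and Irs1 r = 0.802. Over the 17 arrays Igf1r and Irs1 had r = 0.617 but Spearman's rho = 0.074, so that their relation rested on few arrays.

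Igfbp5 encodes a binding protein that attaches to extracellular matrix and can hold IGF near the cell. It was the only member that passed in all 3 comparisons with control plasma. Its probe set (10928837) read 6.60, 6.77 and 6.69 log2 units in the controls and 8.40 and 7.96 with phenylephrine. Before NHD the lowest value was 6.99, the median 8.03 and the highest 8.99, and after NHD 7.24, 7.99 and 8.07. Every uremic plasma and phenylephrine sample, 14 of 14, was therefore above all 3 controls.

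Igfbp5 rose over control by 1.29 ± 0.31 log2 units before NHD (limma, adjusted p = 0.0320; 2.45-fold), by 1.19 ± 0.31 after NHD (adjusted p = 0.00941; 2.29-fold) and by 1.49 ± 0.40 with phenylephrine (adjusted p = 0.0168; 2.81-fold). These 3 values rest on the same control arrays. After and before NHD differed by -0.10 ± 0.25 (adjusted p = 0.885), with a 95% interval from -0.63 to 0.44, and phenylephrine exceeded before NHD by 0.20 ± 0.36 (adjusted p = 0.837). The order of means was phenylephrine (8.18), before NHD (7.98), after NHD (7.88) and control (6.69), in which only the last step passed the test.

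The after NHD rise of Igfbp5 was called without each array in turn (1.15 to 1.32), but not with the array SD as a covariate (0.96, adjusted p = 0.102). The before NHD rise was less firm, with adjusted p of 0.0545, 0.0548 and 0.0631 without before NHD replicates 1, 2 and 6, of 0.168, 0.0509 and 0.154 without control replicates 1, 2 and 3, of 0.199 when only the before NHD and control arrays were fitted, and of 0.131 with the array SD as a covariate. The phenylephrine rise of Igfbp5 did not pass without control replicate 1 (adjusted p = 0.0505) or phenylephrine replicate 1 (0.149) or 2 (0.0613). Over the 17 arrays Igfbp5 had r = 0.647 with the summed cardiomyocyte markers, 0.537 with the endothelial and 0.410 with the fibroblast markers (0.403, 0.638 and 0.287 for the deviations from the group means). Kdr and some cardiomyocyte markers were also higher than control where Igfbp5 was, as given above. Of the other endothelial markers only Cdh5 passed, with phenylephrine. The part of any of these markers in the rise of Igfbp5 or Igf1 was not tested. Before NHD replicate 2 had the lowest fibroblast marker level of all arrays, 12.973, and the highest Igfbp5, 8.99. With that level as a term the differences from control were 1.25 before NHD (adjusted p = 0.0320), 1.06 ± 0.32 after NHD (0.0266) and 1.14 with phenylephrine (0.198). The phenylephrine value again reaches beyond the marker levels of the other groups. The part of fibroblast cells in the rise of Igfbp5 was not tested.

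Igfbp3 and Igfbp6 followed each other, and neither passed in any comparison. Igfbp3, the main IGF carrier of the circulation, read 7.13, 7.12 and 7.09 in the controls and 8.74 and 9.12 with phenylephrine, with 6.74 to 9.05 (median 7.18) before NHD and 6.83 to 9.47 (median 8.23) after NHD. Igfbp6, which prefers IGF-2, read 7.06, 6.67 and 7.03 in the controls and 7.71 and 7.46 with phenylephrine, with 6.53 to 8.74 (median 6.78) before NHD and 6.81 to 8.77 (median 7.74) after NHD. Within the before NHD group 2 samples stood high in both genes. Replicates 3 and 6 read 8.68 and 9.05 for Igfbp3 and 8.24 and 8.74 for Igfbp6, and the other 4 were at most 7.19 and 6.85.

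Igfbp3 exceeded control by 1.81 ± 0.69 with phenylephrine (adjusted p = 0.0758) and by 1.04 ± 0.53 after NHD (adjusted p = 0.157). It was 0.53 ± 0.43 higher after than before NHD (95% interval -0.38 to 1.45). Igfbp6 exceeded control by 0.75 ± 0.48 after NHD (adjusted p = 0.262) and by 0.67 ± 0.62 with phenylephrine (adjusted p = 0.484). Without the samples numbered 4, the phenylephrine difference of Igfbp3 passed at 0.0496.

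The 2 genes had r = 0.900 over the 17 arrays and 0.945 over deviations from the group means, and with the fibroblast marker level r was 0.941 for Igfbp3 and 0.838 for Igfbp6 (0.935 and 0.949 for the deviations). For the deviations, Igfbp3 also had r = 0.825 with the endothelial and 0.793 with the leukocyte markers, and Igfbp6 0.778 and 0.852. Before NHD replicates 3 and 6, high in both genes, had fibroblast marker levels of 14.309 and 14.438, against 13.312 or less in the other 4 samples of the group. Phenylephrine stood apart for Igfbp6. Its fibroblast marker level was the highest of the groups, while Igfbp6, at 7.71 and 7.46, was below the value of 5 plasma samples. With the fibroblast marker level as a term, Igfbp6 was lower with phenylephrine than with control by 1.14 log2 units (difference -1.14, adjusted p = 0.0250), opposite in direction to the difference without the term. Both phenylephrine arrays had marker levels (14.569 and 14.763) above every other array (at most 14.438). The difference with the term thus reaches beyond the levels of the other groups, and treatment and marker level cannot be told apart there.

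Igfbp4, a binding protein that restrains IGF until the protease PAPP-A cleaves it, varied little. It read 7.55, 7.57 and 7.72 in the controls, 8.05 and 8.08 with phenylephrine, 7.30 to 8.03 (median 7.70) before NHD and 7.46 to 7.88 (median 7.69) after NHD. Both phenylephrine values lay above every plasma value. The difference from control was 0.45 ± 0.17 with phenylephrine (adjusted p = 0.0778), 0.06 ± 0.13 before NHD and 0.04 ± 0.13 after NHD, and the first passed without the samples numbered 4 (adjusted p = 0.0361). Igfbp4 varied with the endothelial markers more than with the fibroblast markers (r = 0.880 and 0.770 over the 17 arrays), and the part of either in its level was not tested.

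**Figure D2:**
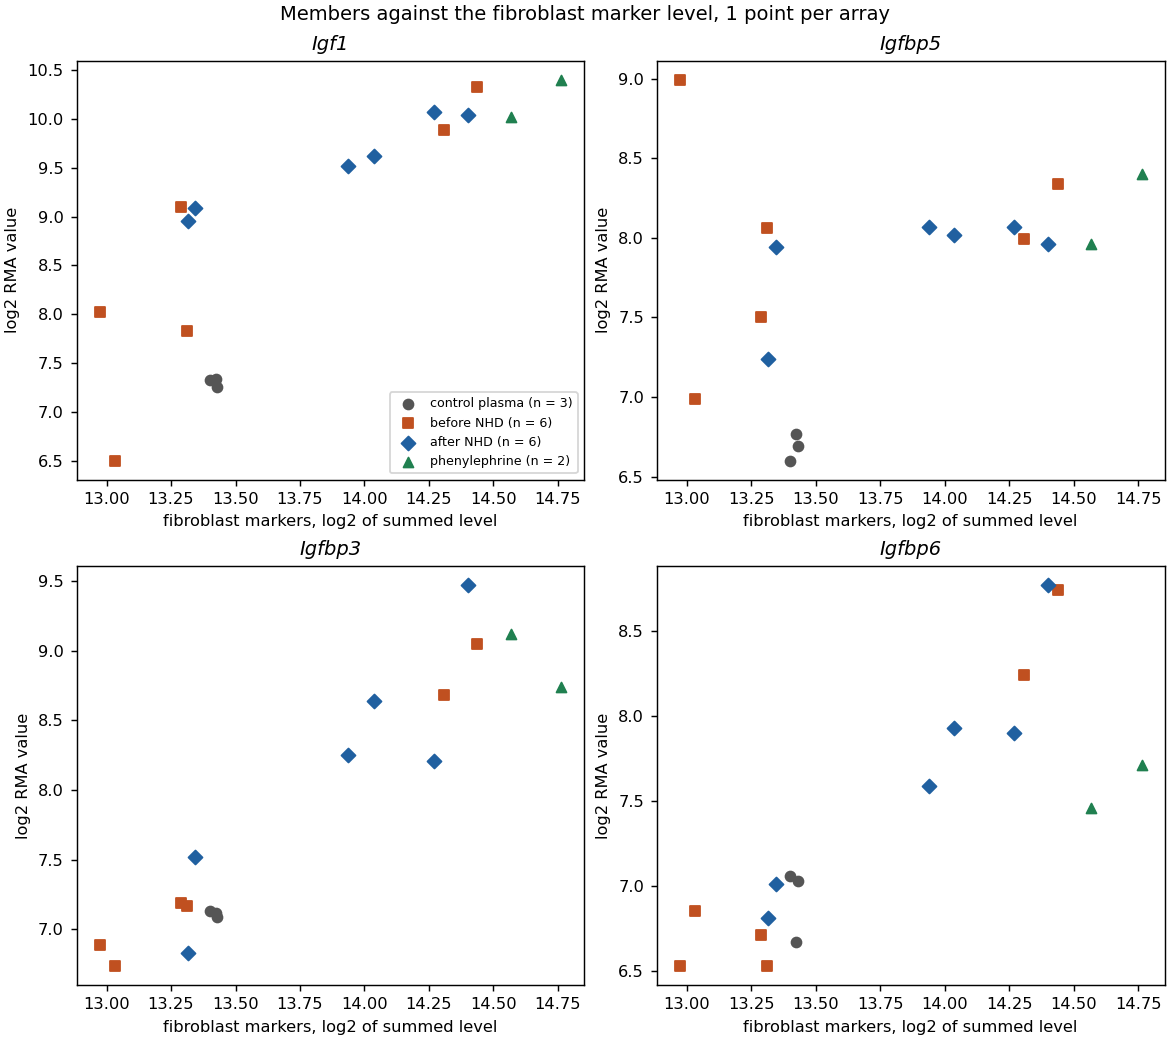
Log2 RMA values of Igf1, Igfbp5, Igfbp3 and Igfbp6 (vertical axes) against the log2 of the summed level of 12 fibroblast markers (horizontal axes), 1 point per array, with a colour and symbol for each of the 4 groups. Igfbp3 and Igfbp6 rise along the horizontal axis (r = 0.941 and 0.838), whereas Igfbp5 is higher than the controls also at marker levels below theirs, as in before NHD replicate 2 at 12.973. The part of fibroblast cells in these levels was not tested.

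By comparison, the members' calls were as follows. After against before NHD, 0 of 9 members passed, beside 0.483% of all genes called. At an unadjusted p under 0.05 also 0 of 9 passed (21.2% of all genes), and all groups overlapped (0.669% of genes did not). Before NHD against control, 1 of 9 passed, as a rise (5.84% of all genes called, 3.75% as rises), and the groups of 1 did not overlap (9.31%). After NHD against control, 2 of 9 passed, both as rises (33% of all genes called, 16.7% as rises), and the groups of 2 did not overlap (38.1%), so that the members' share was near that of all genes. Phenylephrine against control, 2 of 9 passed, both as rises (23.6% of all genes called, 11.7% as rises), and the groups of 8 did not overlap (63.7%).

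Phenylephrine was also set against both uremic plasmas. No member passed against before NHD (background 5.77% of genes) or against after NHD (background 1.35% of genes). At an unadjusted p under 0.05, 3 of 9 passed against before NHD (Igf1, Igfbp3 and Igfbp4; 23.4% of all genes) and 2 of 9 against after NHD (Igf2 and Igfbp4; 14% of all genes). In each of these comparisons the groups of 2 members did not overlap, beside 19.7% and 27.4% of genes: Igfbp4 above and Irs1 below before NHD, and Igf2 and Igfbp4 above after NHD. The members' median difference from control was 0.35 log2 units before NHD, 0.24 after NHD and 0.56 with phenylephrine, where the medians of all 14506 genes were -0.05, -0.07 and -0.06.

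**Figure D3:**
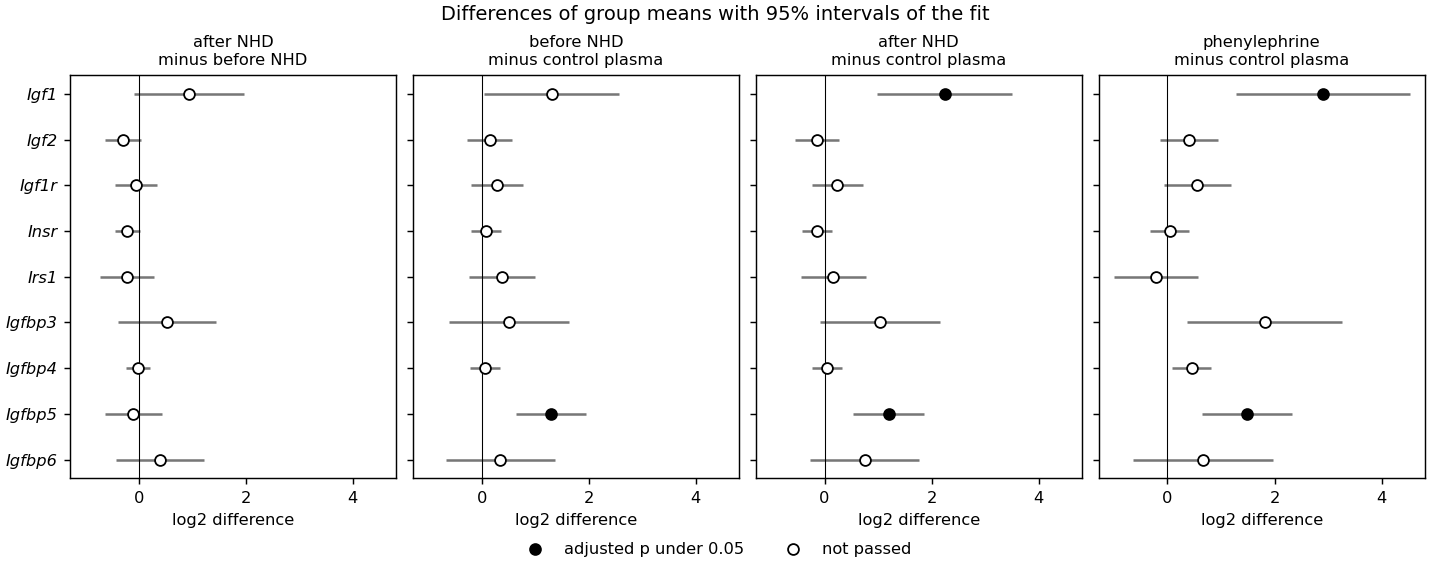
Differences of group means in log2 units (horizontal axes) for the 9 measured members in 4 comparisons, with the 95% interval of the limma fit as a line; filled points passed an adjusted p of 0.05. Igf1 and Igfbp5 passed after NHD (2.24 and 1.19) and with phenylephrine (2.90 and 1.49), Igfbp5 alone before NHD (1.29), and none between after and before NHD.

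The remaining genes of the pathway were taken from lists of 63 genes, of which 51 were measured. After against before NHD none of them passed (0 of 51; background 0.483% of genes), and 12 did at an unadjusted p under 0.05 (21.2% of genes). Before NHD against control, 2 rose and 1 fell (background 3.75% and 2.09% of genes). After NHD against control, 10 rose and 9 fell (background 16.7% and 16.3%), and with phenylephrine 7 rose and 5 fell (background 11.7% and 11.9%). The 51 genes' median difference was 0.04, 0.02 and 0.02 log2 units in these 3 comparisons, so that rises and falls nearly balanced and the shares called were near those of all genes. The counts moved with single arrays, and the shares of all genes called without those arrays are not given here. After NHD against control the count was 12 without control replicate 1, with phenylephrine it was 5 without control replicate 1 or 3 and 3 or 2 without phenylephrine replicate 1 or 2, and before NHD it ran from 0 (without control replicate 1 or 3) to 13 (without before NHD replicate 5).

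Among 12 measured genes of ligand availability, 1 rose and 2 fell after NHD against control. Stc2, whose protein stanniocalcin-2 inhibits PAPP-A, rose by 0.57 ± 0.13 log2 units (adjusted p = 0.00577), from 7.71 to 7.76 in the controls to 7.88 to 8.55 after NHD. Pappa, which encodes PAPP-A, fell by 1.26 ± 0.30 (adjusted p = 0.00599), from 8.10 to 8.27 in the controls to 6.24 to 7.38 after NHD, without overlap. Igfals, the acid-labile subunit that stabilises circulating IGF complexes, fell by 0.47 ± 0.17 (adjusted p = 0.0471). With phenylephrine Igfbp7, a distant relative of the IGF-binding proteins, rose by 1.33 ± 0.39 (adjusted p = 0.0259) to 12.75 and 12.99, Stc2 rose by 0.55 ± 0.17 (adjusted p = 0.0378) and Igfals fell by 0.66 ± 0.22 (adjusted p = 0.0451). Igf2r, the receptor that clears IGF-2, did not pass in any comparison.

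Among 15 receptor-proximal adaptors and brakes, 3 rose and 2 fell after NHD against control. Ptpn1, the phosphatase that switches off the insulin receptor, rose by 0.40 ± 0.12 (adjusted p = 0.0203), and Gab1, a docking protein, by 0.49 ± 0.16 (adjusted p = 0.0288). Trib3, a stress-induced pseudokinase that binds Akt, fell by 1.12 ± 0.25 (adjusted p = 0.00343), from 7.89 to 8.18 in the controls to 6.56 to 7.49. Sh2b1, an adaptor of the insulin and IGF-1 receptors, fell by 0.37 ± 0.11 after NHD (adjusted p = 0.0238) and by 0.88 ± 0.15 with phenylephrine (adjusted p = 0.00119), where both arrays (8.56 and 8.69) were below all controls (9.37 to 9.67). The only adaptor that rose with phenylephrine was Ptpn11, the phosphatase SHP2, by 0.42 ± 0.14 (adjusted p = 0.0432).

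In the PI3K, Akt and mTOR list, 5 of 20 genes rose and 5 fell after NHD against control. Pik3r3, a regulatory subunit of PI3-kinase, fell by 1.45 ± 0.22 (adjusted p = 5.27e-04), from 10.56 to 10.78 in the controls to 8.99 to 9.39 after NHD. It fell by 0.90 ± 0.22 before NHD (adjusted p = 0.0350) and by 1.16 ± 0.29 with phenylephrine (adjusted p = 0.0108). Akt1, the central kinase of the pathway, rose by 0.69 ± 0.17 before NHD (adjusted p = 0.0377), 0.94 ± 0.17 after NHD (0.00130) and 1.02 ± 0.23 with phenylephrine (0.00572). Gsk3a, a kinase that Akt inhibits, rose by 0.77 ± 0.15 before NHD (adjusted p = 0.0193) and 0.89 ± 0.15 after NHD (7.14e-04). Rptor, the scaffold of mTOR complex 1, rose by 1.46 ± 0.28 after NHD (adjusted p = 0.00157), from 6.88 to 7.45 in the controls to 8.37 to 8.71.

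With phenylephrine 4 of these 20 genes rose and 3 fell. Foxo1, the forkhead factor that Akt restrains, fell by 0.99 ± 0.19 (adjusted p = 0.00247), to 8.65 and 8.71 against 9.57 to 9.84 in the controls, and was also lower than before NHD (-0.79, adjusted p = 0.0140). Eif4ebp1, the translation repressor that mTOR complex 1 inactivates, rose by 1.01 ± 0.24 (adjusted p = 0.00814). Among 4 measured genes of glucose uptake, Rab10, a GTPase of glucose transporter traffic, rose after NHD by 0.46 ± 0.10 (adjusted p = 0.00439), and the glucose transporters Slc2a4 and Slc2a1 did not pass. The array measures RNA, so that phosphorylation of Akt, FoxO1 or the receptors was not measured.

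**Figure D4:**
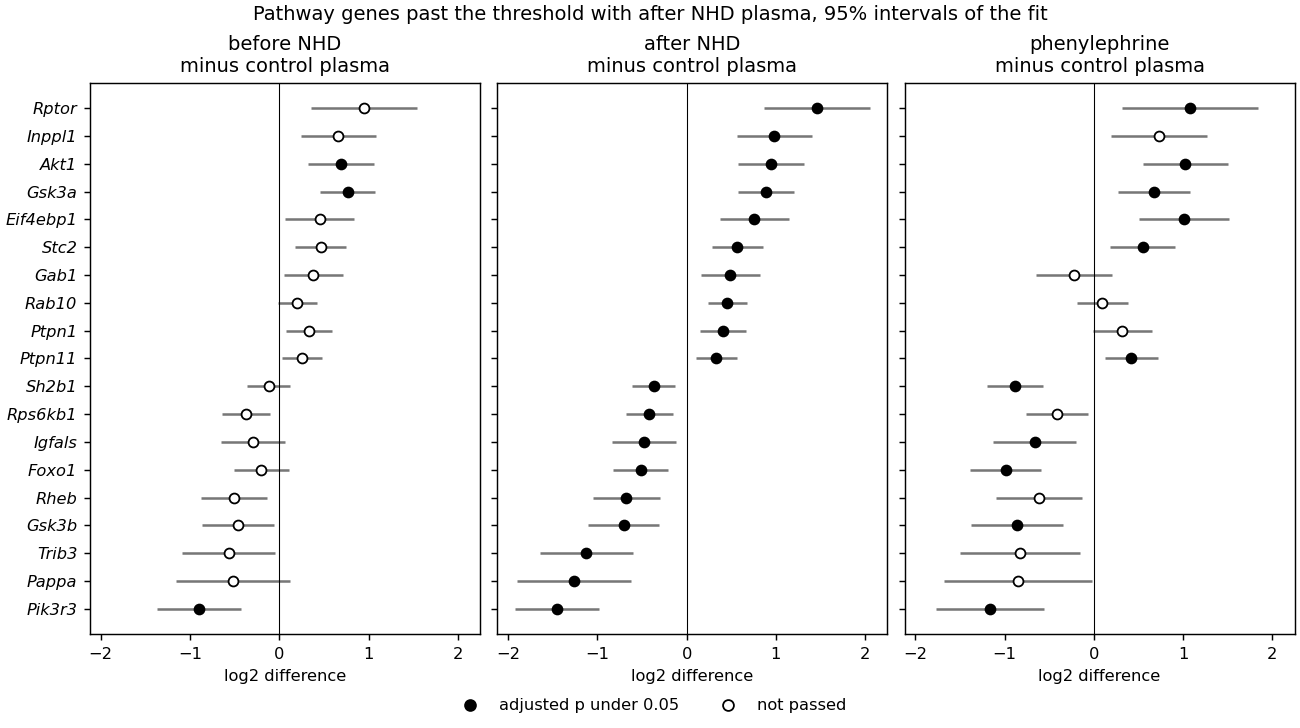
Differences from control plasma in log2 units (horizontal axes) for the 19 pathway genes that passed after NHD, shown before NHD, after NHD and with phenylephrine, with the 95% interval of the limma fit; filled points passed an adjusted p of 0.05. The genes were chosen by the middle panel, and Pik3r3 (-1.45) and Rptor (1.46) are its extremes.

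The genes most like Igfbp5, the member with the smallest p in the F test, were found by Pearson's r over the 17 arrays among genes with a full symbol. They were Poglut3 (r = 0.934), Hsd17b4 (0.925), Capn1 (0.922), Marchf2 (0.914) and Pigk (0.912). For the deviations from the group means these values were 0.870, 0.861, 0.809, 0.863 and 0.791, and they are given as a description, since they are the highest of many genes and the arrays share their groups.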

How the data were processed

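Gene expression was read on 17 arrays, 1 per sample. The deposited values are log2 values that, per the submitters' processing notes, the authors obtained by RMA. This method corrects background, equalises the distributions of the arrays and summarises each probe set, so that a shift shared by most genes would be lost. Its version is not given in the sources used here, nor is a scan or culture batch. That the scale is log2 was judged by the range, 1.28 to 14.29. Array precision is limited by the number of arrays.

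Of 29214 probe sets, 15310 had 1 gene symbol in the platform annotation, 323 several and 13581 none here. RefSeq's gene table (GRCr8) held 15279 of the symbols. The probe set with the highest mean stood for its gene. All 29214 were fitted at once with limma 3.58.1 in R 4.3.3 (lmFit, eBayes; 4 groups, 13 residual degrees of freedom), which pools the groups' spread. The two-sided p-values were adjusted by Benjamini-Hochberg over all probe sets, with a threshold of 0.05. The procedure was tested on simulated data. Marker levels were summed on the linear scale and given as log2.

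The members, pathway lists, marker lists and tests were chosen with earlier results of these data known. All members are named, and of each pathway list at most 4 genes per comparison, those with the smallest p past the threshold. Alternatives were another probe set, the brighter probe sets, a 1.5-fold minimum, repeated quantile normalization, a trended robust prior, only the compared groups, array weights, a replicate block, each array's SD as a covariate, leaving out the samples numbered 4 or each array in turn and, added after the data were seen, the fibroblast marker level as a term. The titles of 2 before NHD samples carry several replicate numbers, and the last was used.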

Additional observations from a re-analysis of the deposited data

Results flagged for a closer look

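In the after NHD group, replicate 4 lay far from the other 5 samples in 2 members. Its Irs1 value, 10.40, was the highest, with a gap to the next that was 0.661 of the group's range, and its Igfbp5 value, 7.24, was the lowest, with a gap of 0.839 of the range. Both ratios exceed the 95% critical value of Dixon's test for 6 samples. Of 18 gene and group combinations examined these 2 did so, where chance gives about 1 in 20.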

How the results depend on the processing

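With all arrays 2 members passed the F test, and 0, 1, 2 and 2 passed in after minus before NHD and in before NHD, after NHD and phenylephrine against control (pathway genes 0, 3, 19 and 12). With array weights 5 members passed the F test, 2 before NHD, 6 with phenylephrine against control, 1 against before NHD and 2 against after NHD, and 5, 18 and 29 pathway genes passed after minus before NHD, before NHD and with phenylephrine. With the replicate number as a block 5 members passed the F test, 6 with phenylephrine (Igf1, Igf2, Igf1r, Igfbp3, Igfbp4 and Igfbp5), and 11 pathway genes before NHD. The block joined equal numbers across all groups, control and phenylephrine arrays included, for which the labels give no shared culture or donor. Whether the numbers pair samples is not known: the deviations of same-numbered before and after samples correlated at -0.025 to 0.599, over 0.1 in 4 of 6 pairs, and those numbered 2, 3 and 4 correlated best with each other. Igf2 and Insr were lower after NHD in 6 of 6 same-numbered pairs and did not pass with the block (-0.29 and -0.22, adjusted p = 0.0809 and 0.187). With array SD as a covariate, 0 members passed the F test, before NHD or after NHD, and 0, 7 and 7 pathway genes before NHD, after NHD and with phenylephrine. Without the samples numbered 4, 5 members passed with phenylephrine, and 3 and 5 pathway genes after minus before NHD and before NHD. With only the compared groups, 0 members and 0 pathway genes passed before NHD and 7 and 24 with phenylephrine. The 1.5-fold minimum left 10 pathway genes after NHD, and the brighter probe sets gave 7 before NHD. With the fibroblast marker level as a term 1 member passed with phenylephrine against control, against before NHD and against after NHD, and 1 pathway gene against control, while Igfbp6 was reversed against control (-1.14) and before NHD (-1.28). These phenylephrine values reach beyond the marker levels of the other groups, as given above. The cause of the changes under these alternatives was not tested. The share of all genes called under each alternative is not given here, so the counts in this section cannot be set against it. Without each array in turn, the counts of members were 0 to 3 (F test), 0 to 1 (after minus before NHD), 0 to 2 (before NHD), 2 to 2 (after NHD) and 0 to 3 (phenylephrine), and those of pathway genes 0 to 4, 0 to 13, 12 to 22 and 2 to 16. The second quantile normalization and the trended prior moved none of these counts by over 1.5 times.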
